A study of Homo sapiens with 6 samples.

Results

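A splicing caller had listed pairs of neighbouring exons of which a transcript was taken to use 1 or the other, and the pairs described here are those whose 2 exon lengths differ by a number of bases that is not a multiple of 3. Swapping such exons would move the reading frame downstream, as far as exon lengths alone can show. Of 9289 listed pairs with coordinates, 5830 (62.8%) met this rule, in 3035 genes and with 5095 distinct combinations of exons, and the other 3459 kept the frame. The rule used exon lengths only, not reads.

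The libraries were made from total RNA of LNCaP, a cell line from a human prostate cancer that responds to androgen. KDM4B is a histone demethylase that removes methyl groups from lysine 9 of histone H3. There were 3 libraries from cells with a stable Flag-tagged KDM4B transgene (KDM4B libraries, replicates 1, 2 and 4) and 3 from cells with a stable plenti6 control plasmid (vector libraries, replicates 1, 2 and 3). All cells were held for 3 days in RPMI with 10% CFBS, an abbreviation the labels do not spell out. The names of the KDM4B libraries share a suffix that those of the vector libraries lack, and its meaning is not given. The labels give neither the promoter of the transgene, nor whether each line was a clone or a pool, nor whether replicates were separate cultures. A p-value here therefore speaks of the spread among these libraries alone, which may be technical.

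The KDM4B transcript measured 26.33, 27.17 and 25.76 FPKM (fragments scaled to gene length and library size) in the KDM4B libraries, against 24.73, 25.15 and 25.28 FPKM in the vector libraries. The groups did not overlap, but the difference of 0.07 on the log2(FPKM + 1) scale missed the threshold (limma adjusted p = 0.113), and it passed after scaling by the median of ratios (0.31, limma adjusted p = 1.93e-05). Ribosomal RNA genes took 8.14% to 10.5% of the summed FPKM in the KDM4B libraries and 0.144% to 0.473% in the vector libraries. This difference coincides with the groups, so its part in the results that follow was not tested and cannot be told apart from that of the transgene. All 10 LNCaP or luminal prostate markers averaged at least 1 FPKM in both groups, with sums of 1708 to 1781 FPKM in the KDM4B libraries and 4421 to 4615 FPKM in the vector libraries. None of the basal, haematopoietic and endothelial markers did, with KRT5 and TP63 at 0 or not listed. Of 4 mesenchymal markers, 1 reached that level in the KDM4B libraries and 2 in the vector libraries. In RNA from whole cultures, fewer cells of a kind and less RNA per cell cannot be told apart.

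Mutually exclusive exons are a form of alternative splicing in which exactly 1 of a set of exons is kept. In the textbook cases of this kind the exons are alike in length and sequence, so that the protein exchanges one segment for another. Where the exons differ in frame, a transcript that swaps them can meet an early stop codon, and such transcripts can be degraded by nonsense-mediated decay.

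The lengths divided the frame-changing pairs into 2 kinds. In 4062 pairs (69.7%) the length of 1 exon was a multiple of 3 and that of the other was not. In the remaining 1768 (30.3%) neither was a multiple of 3 and the remainders were 1 and 2, so that the 2 exons as a unit kept the frame. Whether an exon is coding is not recorded in the table, so a frame here is a property of lengths and not of a protein.

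The deposited count of a pair joins the reads of both exons. Separate counts were recovered where the skipped exon table listed both exons between the same flanks. The summed counts of the 2 skipped exon events minus the count of the pair equal the skipping reads counted in duplicate, so skipping reads and each exon's own reads follow. This gave 2043 frame-changing pairs (35.0%) in 1374 genes, of which 1025 genes held 1 pair and the most held 12. The other 3787 pairs were counted but have no result here. Exons of the recovered pairs were 15 to 9234 bases long with a median of 118, and the median intron between them was 2617 bases.

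The name mutually exclusive did not match the transcripts listed beside the pairs. At least 1 listed transcript carried both exons in 1976 of the 2043 recovered pairs (96.7%), and a transcript with neither exon was listed for 240 (11.7%). For 67 pairs no listed transcript held both. The pairs are therefore called here by their rule, as frame-changing pairs, and a change in exon choice is a change in the share of reads between 2 neighbouring exons, not a swap within a molecule.

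Summed over pairs, the 3′ exon held more reads than the 5′ exon in every library. The sums over the recovered pairs put 41.8%, 41.6% and 41.7% of exon reads in the 5′ exon in the KDM4B libraries and 42.0%, 42.1% and 42.1% in the vector libraries. Among 1896 pairs with enough reads to test, the median 5′ share was 46.5% in the KDM4B libraries and 45.6% in the vector libraries. In 67.6% of them reads per base of the 2 exons were within 2-fold, and in 235 (12.4%) the lesser exon held under 10% of the reads. The pairs thus mostly read as 2 neighbours of which both were used at a like level per base. Genes with very many reads varied little between libraries: in RPLP1, a ribosomal protein gene, the 5′ share was 44.3%, 45.1% and 45.4% in the KDM4B libraries and 44.7%, 44.4% and 43.8% in the vector libraries. RPLP1, RPL12, RPS9 and PPIA, the gene of cyclophilin A, had log2 odds ratios between -0.03 and 0.04, none past the threshold. These genes have many processed copies in the genome, so their reads are uncertain.

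Exon choice was tested as the odds of 5′ exon over 3′ exon reads, KDM4B over vector, with edgeR's quasi-likelihood test and Benjamini-Hochberg adjustment over all 2997 pairs tested, frame-keeping pairs included. The 5′ share rose in 18 frame-changing pairs and fell in 18, in all 36 of 1896 (1.90%), against 1.63% of all tested pairs (0.834% higher and 0.801% lower). The 36 calls lay in 21 genes: 8 genes held rises only, 9 falls only and 4 both. Among frame-keeping pairs 13 of 1101 (1.18%) passed. By gene, 12 of 837 held a called frame-keeping pair and 21 of 1308 a called frame-changing pair. Pairs of 1 gene can share exons, and the difference between the shares was not tested. The groups did not overlap in 270 frame-changing pairs (14.2%), close to the 14.4% of all tested pairs, and in all 36 called ones. Of the pairs with 1 exon a multiple of 3, 33 of 1234 (2.67%) passed, and of those with neither, 3 of 662 (0.453%), which had a lower median number of reads (219 against 259 per library). None of the 47 tested pairs without a shared transcript passed, with 8 at an unadjusted p under 0.05 by edgeR.

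The size of the shifts was mostly small. The median absolute log2 odds ratio was 0.17 over the 1896 pairs, and 78 (4.11%) reached 1. Called pairs had a median of 678 reads per library, against 251 over all tested ones. Calls spanned -18.4 to 22.0 percentage points, and 12 in 8 genes exceeded 10 points. The calls by DESeq2 numbered 14, and 14 pairs in 8 genes were called both by DESeq2 and without each library in turn: ADAM15, C16orf13, CTNND1, EIF4G1, MYL6, PMF1-BGLAP, SLC50A1 and TSTD1. The exon choice calls outside these 14 pairs were thus not called by DESeq2.

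**Figure D1:**
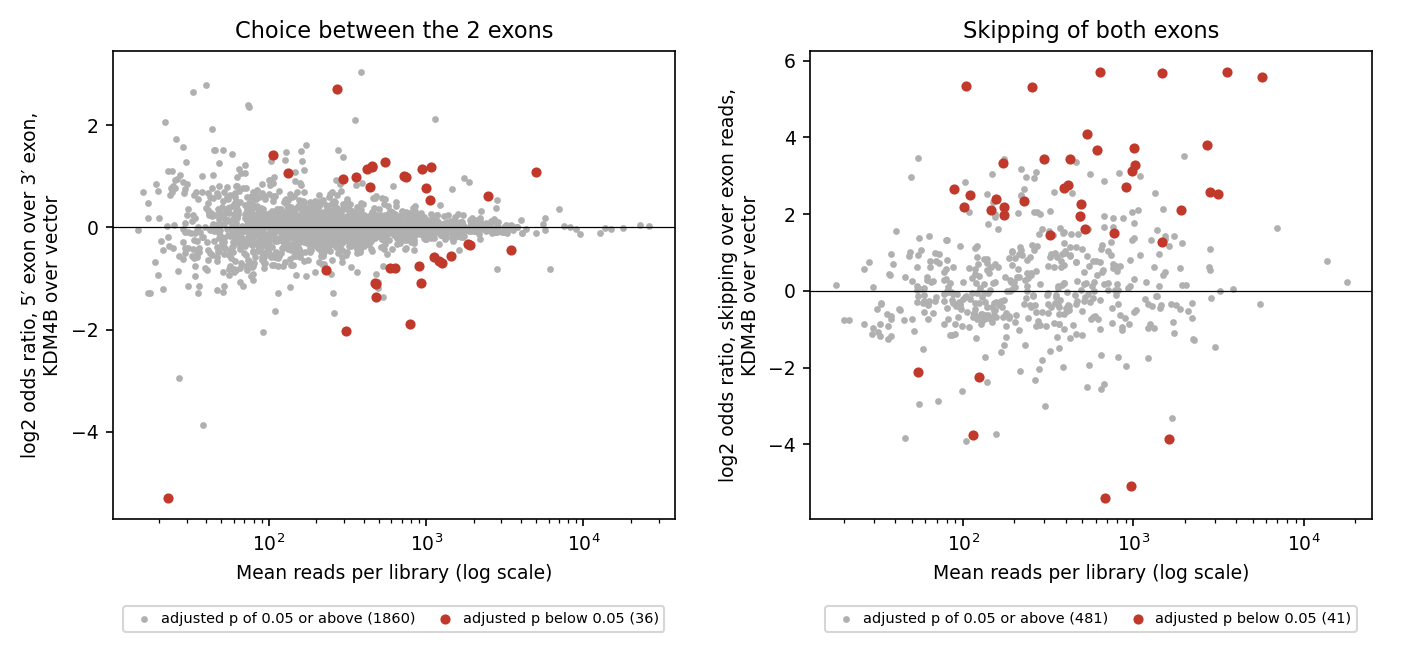
Log2 odds ratios of all tested frame-changing pairs, KDM4B over vector, against mean reads per library on a log axis, for exon choice (left, 1896 pairs) and for skipping of both exons (right, 522 pairs). Red points passed the edgeR threshold (36 and 41 pairs); the red points of the skipping panel lie mostly above 0, and those furthest from 0 include pairs with no skipping read in 1 group, whose fitted values are not bounds.

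The named rises included genes of cell adhesion and the cytoskeleton. CTNND1 encodes p120-catenin, which binds the inner side of cadherins. Its 289-base exon (chromosome 11, 57558857 to 57559145, plus strand) held 151, 131 and 180 reads in the KDM4B libraries, against 58, 60 and 65 in the vector libraries. The 72-base exon downstream (57561482 to 57561553) held 425, 460 and 454 reads in the KDM4B libraries, against 456, 396 and 440 in the vector libraries. In these reads the upstream exon was high in all 3 KDM4B libraries while the downstream one overlapped between the groups. They are not scaled to depth, so they do not place the change in 1 exon. Summed reads of all pairs were 5182338 to 5373342 in the KDM4B libraries and 6057758 to 6262589 in the vector libraries. The share of the upstream exon averaged 25.6% ± 3.16 in the KDM4B libraries and 12.4% ± 1.01 in the vector libraries (each SD, n = 3). This gave a log2 odds ratio of 1.28 ± 0.17 (SE, edgeR adjusted p = 1.03e-05). With a longer form of the upstream flank the same exons gave a log2 odds ratio of 1.14 ± 0.18 (edgeR adjusted p = 0.000138). The gene's level was 56.93, 59.42 and 57.12 FPKM in the KDM4B libraries and 55.03, 55.09 and 57.12 FPKM in the vector libraries, without a called difference as deposited, and was higher after scaling (0.29 on the log2 scale, limma adjusted p = 1.43e-05).

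Exon positions are those of the deposited tables, given from 1. The submitters' processing notes name GRCh38 and hg38, but only 12.2% of the pairs lay inside their gene on GRCh38, and the highest position on chromosome 1, 249151696, is beyond the last gene of GRCh38 there (248937099). The build is therefore not settled, and positions serve here only to tell exons apart.

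ADAM15 encodes a membrane-anchored disintegrin and metalloproteinase whose cytoplasmic tail is known to vary by alternative splicing. Its 72-base exon (chromosome 1, 155034380 to 155034451) held 67, 100 and 65 reads in the KDM4B libraries, against 162, 208 and 187 in the vector libraries. The 139-base exon upstream held 889, 948 and 881 reads in the KDM4B libraries, against 1004, 982 and 901 in the vector libraries. Its share rose to 92.2% ± 1.5 in the KDM4B libraries, against 83.8% ± 1.99 in the vector libraries (SD over n = 3 libraries each; log2 odds ratio 1.18 ± 0.15, edgeR adjusted p = 5.34e-06). The other 3 called ADAM15 pairs took a 70-base exon as the upstream member and pointed the same way, with log2 odds ratios of 0.99, 1.18 and 1.20. These pairs share exons and flanks, so they are not 4 separate observations.

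MYL6 encodes an essential light chain of non-muscle and smooth muscle myosin. Its 28-base exon held 47, 42 and 38 reads in the KDM4B libraries, against 18, 16 and 13 in the vector libraries. The 144-base exon held 5066, 5827 and 5800 reads in the KDM4B libraries, against 4377, 4450 and 4272 in the vector libraries. Both exons were higher in all 3 KDM4B libraries, the short one by more, and it stayed under 1% of the reads in every library (0.76% ± 0.14 in the KDM4B libraries, 0.36% ± 0.05 in the vector libraries, each SD, n = 3; log2 odds ratio 1.08 ± 0.21, edgeR adjusted p = 0.00215).

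MARK2 encodes a kinase that regulates microtubules and cell polarity. Its 98-base exon held 56.5%, 66.7% and 58.2% of the reads of the pair in the KDM4B libraries, against 39.8%, 46.2% and 46.4% in the vector libraries. The 98-base exon thus had more reads than the 162-base one in all KDM4B libraries and fewer in all vector libraries (log2 odds ratio 0.95 ± 0.20, edgeR adjusted p = 0.00339). These reads are not scaled to exon length, so they do not tell which exon was used more. Without vector replicate 1 the edgeR adjusted p was 0.0556.

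WBSCR27 (METTL27, a methyltransferase-like protein by name) had the widest shift in percentage points among the called exon choices. Its 127-base exon held 72.5%, 77.1% and 73.3% of the reads in the KDM4B libraries, against 49.3%, 51.9% and 55.8% in the vector libraries, when paired with the 90-base exon further downstream (log2 odds ratio 1.41 ± 0.32, edgeR adjusted p = 0.00992). That pair was chosen after its values were seen, and it was lost without KDM4B replicate 2 (edgeR adjusted p = 0.0635) or without vector replicate 1 (0.0836). Paired with the 129-base exon, the share was 58.5% ± 5.59 in the KDM4B libraries and 40.0% ± 5.0 in the vector libraries (edgeR adjusted p = 0.0435), and this call was lost without KDM4B replicate 1 or 4 or any 1 vector library (0.0785 to 0.303). The gene itself was lower, at 8.27, 10.17 and 9.19 FPKM in the KDM4B libraries, against 18.23, 20.96 and 20.31 FPKM in the vector libraries.

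GPR137, a lysosomal membrane protein, had 71.0%, 55.7% and 62.5% of reads in its 226-base exon in the KDM4B libraries, against 47.8%, 50.5% and 51.3% in the vector libraries (log2 odds ratio 0.79 ± 0.18, edgeR adjusted p = 0.0126). The KDM4B libraries were wide apart and all above the vector libraries. The call was lost without KDM4B replicate 1, vector replicate 1 or vector replicate 3 (edgeR adjusted p = 0.175, 0.11 and 0.0779). SYTL1, a synaptotagmin-like protein that binds RAB27, had 4, 4 and 7 reads of its 100-base exon in the KDM4B libraries, against 0, 2 and 5 in the vector libraries. The reads of its 206-base exon were 127, 157 and 104 in the KDM4B libraries and 404, 394 and 415 in the vector libraries. The share of the 100-base exon was 3.95% ± 2.06 in the KDM4B libraries and 0.57% ± 0.60 in the vector libraries (edgeR adjusted p = 0.0335). The gene was lower too, at 7.56, 7.95 and 7.99 FPKM in the KDM4B libraries and 27.05, 28.0 and 26.9 FPKM in the vector libraries. The exon call was lost without KDM4B replicate 1 or 4 or vector replicate 1 or 2 (0.0642 to 0.282).

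SLC50A1, a sugar transporter of the SWEET family, had calls on both sides of 1 exon. The 124-base exon (chromosome 1, 155109304 to 155109427) held 231, 240 and 170 reads in the KDM4B libraries, against 612, 523 and 503 in the vector libraries. The 78-base exon upstream of it held 496, 502 and 484 reads in the KDM4B libraries, against 749, 809 and 667 in the vector libraries. All reads were lower in the KDM4B libraries, those of the 124-base exon by more. The share of the 78-base exon rose to 70.0% ± 3.51 in the KDM4B libraries, against 57.6% ± 2.90 in the vector libraries (log2 odds ratio 0.77 ± 0.12, edgeR adjusted p = 0.000169). Against the 162-base exon downstream, the share of the 124-base exon fell to 23.5% ± 2.37 in the KDM4B libraries, against 31.1% ± 1.53 in the vector libraries (log2 odds ratio -0.55 ± 0.10, edgeR adjusted p = 0.0013). The rise was lost by limma on log2 ratios (adjusted p = 0.0629), and the fall by limma (0.094) and by DESeq2 (0.239). The gene was also lower, at 62.73, 69.48 and 64.24 FPKM in the KDM4B libraries and 112.72, 114.79 and 108.47 FPKM in the vector libraries.

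EIF4G1 encodes the scaffold of the cap-binding complex that starts translation. A 94-base exon near its 5′ end (chromosome 3, 184033551 to 184033644) held 44, 36 and 41 reads in the KDM4B libraries, against 22, 14 and 21 in the vector libraries. The reads of the 57-base exon upstream overlapped between the groups, at 431, 482 and 427 in the KDM4B libraries and 430, 493 and 450 in the vector libraries. These reads are not scaled to depth, so they do not tell which exon changed. Against the 94-base exon, the share of the 57-base exon was smaller (91.7% ± 1.22 in the KDM4B libraries, 96.0% ± 1.12 in the vector libraries, edgeR adjusted p = 0.0126). The share of the 94-base exon against the 87-base exon downstream was larger (5.36% ± 0.855 in the KDM4B libraries, 2.73% ± 0.57 in the vector libraries, edgeR adjusted p = 0.0225). Both were lost without KDM4B replicate 1 or 4 or vector replicate 2 or 3 (0.0521 to 0.156). A fall of the 57-base exon against a 100-base exon (89.6% ± 1.47 in the KDM4B libraries, 95.6% ± 1.29 in the vector libraries; edgeR adjusted p = 0.00101) passed without each library in turn.

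TSTD1, a thiosulfate sulfurtransferase-like protein, had fewer reads of both exons in all KDM4B libraries, with the larger drop in the first. Its 123-base exon held 163, 151 and 192 reads in the KDM4B libraries, against 508, 572 and 517 in the vector libraries. Its 163-base exon held 588, 598 and 657 reads in the KDM4B libraries, against 1158, 1291 and 1156 in the vector libraries. The 5′ share fell to 21.5% ± 1.24 in the KDM4B libraries, against 30.7% ± 0.21 in the vector libraries (SD over n = 3 libraries each; log2 odds ratio -0.69 ± 0.11, edgeR adjusted p = 0.000114). The gene was lower too (46.39, 50.02 and 52.47 FPKM in the KDM4B libraries, 103.91, 115.25 and 107.74 FPKM in the vector libraries).

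MLPH encodes melanophilin, which links RAB27A on vesicles to a myosin motor. Its 140-base exon held 82.9%, 82.4% and 82.9% of the reads in the KDM4B libraries, against 88.4%, 88.9% and 90.4% in the vector libraries (log2 odds ratio -0.79 ± 0.17, edgeR adjusted p = 0.00446). The vector libraries were all higher, and without vector replicate 3 the edgeR adjusted p was 0.0533. FXR1, an RNA-binding protein of the fragile X family, had 92, 112 and 79 reads of its 92-base exon in the KDM4B libraries, against 54, 64 and 53 in the vector libraries. The share of its 201-base exon fell to 92.5% ± 0.80 in the KDM4B libraries, against 95.1% ± 0.57 in the vector libraries (edgeR adjusted p = 0.0173). The FXR1 call was lost without KDM4B replicate 2, vector replicate 1 or vector replicate 3 (0.133, 0.096 and 0.173).

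SLC29A2, a nucleoside transporter, had 30.3%, 36.6% and 28.6% of reads in its 140-base exon in the KDM4B libraries, against 44.7%, 45.5% and 46.3% in the vector libraries (log2 odds ratio -0.84 ± 0.21, edgeR adjusted p = 0.0238). The vector libraries lay close together and all above, yet the call was lost without KDM4B replicate 1 or 4 or any 1 vector library (0.0825 to 0.155). MRPL55, a protein of the large mitochondrial ribosomal subunit, had 64, 60 and 72 reads of its 67-base exon in the KDM4B libraries, against 162, 157 and 138 in the vector libraries. Its share against the 84-base exon fell to 13.8% ± 2.15 in the KDM4B libraries, against 21.7% ± 0.25 in the vector libraries (log2 odds ratio -0.80 ± 0.16, edgeR adjusted p = 0.00339; 0.0542 without KDM4B replicate 2).

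KLK2, an androgen-induced secreted protease, combined a large fall of the gene with a small shift of exons. The gene measured 21.78, 18.95 and 21.57 FPKM in the KDM4B libraries, against 163.64, 171.13 and 168.19 FPKM in the vector libraries. Its 287-base exon held 68.7%, 70.6% and 74.0% of the reads of the pair in the KDM4B libraries, against 75.4%, 78.3% and 77.0% in the vector libraries. The groups did not overlap, and the log2 odds ratio was -0.44 ± 0.09 (edgeR adjusted p = 0.00471). The call was lost without KDM4B replicate 1 (edgeR adjusted p = 0.101), by DESeq2 (adjusted p = 0.526) and by limma on log2 ratios (adjusted p = 0.166).

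PMF1-BGLAP, a read-through of the PMF1 and BGLAP genes that shares reads with both, is uncertain. Its 101-base exon had 1, 2 and 4 reads in the KDM4B libraries and 16, 11 and 11 in the vector libraries, beside 256 to 283 and 295 to 365 reads of the other exon in the KDM4B and vector libraries. The call (edgeR adjusted p = 0.0312) was lost without any 1 library other than KDM4B replicate 4 (0.0584 to 0.167). A second pair of this gene had a 5′ exon of 2937 bases and a 3′ exon of 106 bases. Its reads are not scaled to exon length, so they do not tell which exon was used more. The 5′ share rose to 90.1% ± 0.68 in the KDM4B libraries, against 85.7% ± 0.72 in the vector libraries (log2 odds ratio 0.61 ± 0.09, edgeR adjusted p = 8.78e-05). This call passed without each library in turn. WDR52 (CFAP44), which the named rule left out for its low counts, had 6, 4 and 3 reads of its 74-base exon in the KDM4B libraries and 0, 0 and 0 in the vector libraries, and 25, 18 and 14 reads of its 178-base exon in the KDM4B libraries and 27, 20 and 21 in the vector libraries (edgeR adjusted p = 0.0308). It was lost without KDM4B replicate 1 or 4 or any 1 vector library (0.0509 to 0.17). The other called genes were FBXL17, an F-box protein (24.4% ± 2.36 of reads in the 5′ exon in the KDM4B libraries, 18.2% ± 1.24 in the vector libraries), NDUFV3, a subunit of respiratory complex I (37.6% ± 2.21 in the KDM4B libraries, 43.0% ± 1.23 in the vector libraries), and PFDN5, a prefoldin subunit (52.9% ± 0.60 in the KDM4B libraries, 58.7% ± 2.73 in the vector libraries). Each of these 3 was lost without at least 4 of the 6 libraries taken 1 at a time, with edgeR adjusted p between 0.0508 and 0.347.

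**Figure D2:**
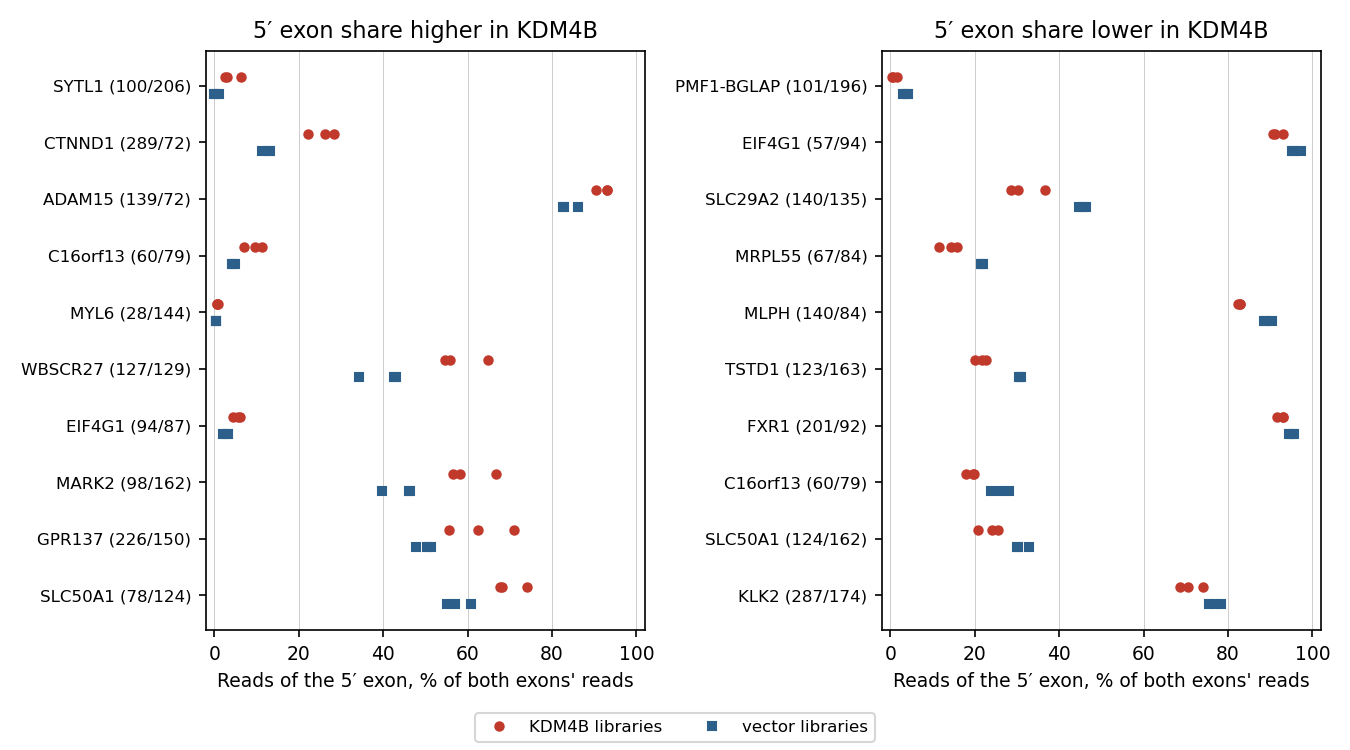
Share of exon reads in the 5′ exon, in percent, in each KDM4B library (red circles) and each vector library (blue squares), for the 10 named rises (left) and 10 named falls (right), with the lengths of the 5′ and 3′ exon in bases in parentheses. The groups do not overlap in any of the 20 pairs, which the naming rule required. Group means differ most in WBSCR27, MARK2 and SLC29A2 (18.5, 16.3 and -13.7 percentage points, KDM4B minus vector).

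C16orf13 (METTL26) held the most calls, 6 for exon choice and 3 for skipping, all made from the same few exons on the minus strand of chromosome 16. Between its outer exons at 686094 to 686347 and 684719 to 684797 the table placed exons of 163, 60 and 68 bases. The 163-base exon (685612 to 685774) held 537, 558 and 430 reads in the KDM4B libraries, against 1010, 1104 and 973 in the vector libraries. The 68-base exon (684889 to 684956) held 123, 131 and 164 reads in the KDM4B libraries, against 265, 265 and 264 in the vector libraries. The 60-base exon (685281 to 685340) held 136, 186 and 163 reads in the KDM4B libraries, against 148, 167 and 150 in the vector libraries. In these reads, not scaled to depth, the 163-base and 68-base exons were lower in all 3 KDM4B libraries. The 60-base exon overlapped between the groups.

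Reads that joined the outer exons of C16orf13 directly went the other way, at 90, 82 and 77 in the KDM4B libraries and 20, 20 and 11 in the vector libraries. Skipping of the 163-base and 60-base exons was 11.1% ± 1.0 in the KDM4B libraries and 1.41% ± 0.38 in the vector libraries (each SD, n = 3), a log2 odds ratio of 3.11 ± 0.37 (edgeR adjusted p = 5.19e-09). For the 163-base and 68-base exons, whose lengths are both no multiple of 3, it was 3.29 ± 0.37 (edgeR adjusted p = 1.81e-09), the lowest adjusted p among the frame-changing pairs tested for skipping. The gene measured 94.57, 113.15 and 91.85 FPKM in the KDM4B libraries, against 140.34, 149.02 and 133.09 FPKM in the vector libraries.

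The exon choice call of C16orf13 with the lowest adjusted p, chosen after its values were seen, set the 163-base exon against the 60-base exon with the downstream flank at 684429 to 684644. There the 163-base exon held 494, 521 and 400 reads in the KDM4B libraries, against 965, 1061 and 942 in the vector libraries. The 60-base exon held 58, 106 and 80 reads in the KDM4B libraries, against 49, 46 and 43 in the vector libraries. The share of the 163-base exon fell to 85.3% ± 3.63 in the KDM4B libraries, against 95.5% ± 0.35 in the vector libraries (log2 odds ratio -1.88 ± 0.20, edgeR adjusted p = 1.82e-07), and the call was kept in all 13 alternatives run on it. With the other downstream flanks the same exons gave log2 odds ratios of -1.08 and -0.76 (edgeR adjusted p = 5.34e-06 and 0.00114). The 60-base exon rose against the 68-base exon (0.99 ± 0.17, edgeR adjusted p = 0.000735). The -0.76 and 0.99 were lost by DESeq2 (adjusted p = 0.0994 and 0.0522) and by limma on log2 ratios (0.104 and 0.0564).

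The choice between the 60-base and 79-base exons of C16orf13 showed how a share depends on the flank. With the outermost exon as the upstream flank, the 60-base exon had 58, 106 and 80 reads in the KDM4B libraries, against 49, 46 and 43 in the vector libraries, and its share rose (log2 odds ratio 1.14 ± 0.19, edgeR adjusted p = 0.000201). With the 163-base exon as the flank, it had 172, 193 and 153 reads in the KDM4B libraries, against 383, 361 and 313 in the vector libraries, and its share fell (-0.58 ± 0.12, edgeR adjusted p = 0.00249). That fall was lost without vector replicate 1 (edgeR adjusted p = 0.05), by DESeq2 (adjusted p = 0.27) and by limma on log2 ratios (adjusted p = 0.0657). The 60-base exon was thus counted with reads that reach each flank, more of them from the outermost exon and fewer from the 163-base exon in the KDM4B libraries. The labels do not say whether counting used the strand, so reads of an overlapping gene on the other strand could not be told apart.

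**Figure D3:**
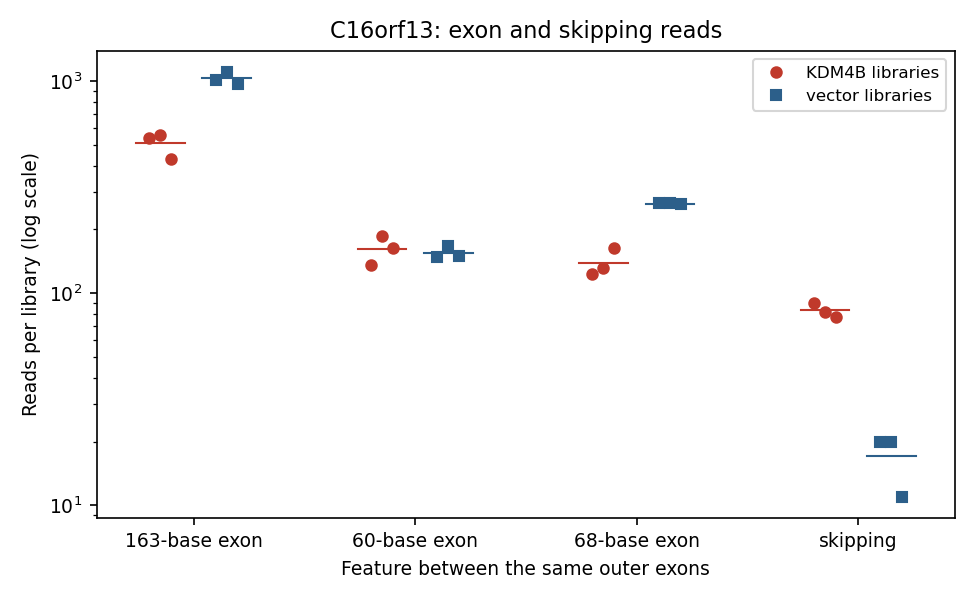
Reads per library on a log axis for the 163-base, 60-base and 68-base exons of C16orf13 and for reads that skip them, all between the same outer exons, in KDM4B libraries (red circles) and vector libraries (blue squares), with group means as lines. Skipping reads are higher in the KDM4B libraries (77 to 90) than in the vector libraries (11 to 20), the 163-base and 68-base exons are lower, and the 60-base exon overlaps.

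Reads that lack both exons of a pair were scarce. Of the 2043 recovered frame-changing pairs, 220 (10.8%) had no such read in any library and 1501 had fewer than 10 in all, so 522 pairs in 369 genes were tested. Among these the median skipping share was 2.15% in the KDM4B libraries and 1.88% in the vector libraries. Over the 522 pairs the median log2 odds ratio was 0.098, and 46.7% of the pairs were below 0, so the tested pairs as a whole leaned little either way. Past the threshold, skipping rose in 35 pairs and fell in 6, in all 41 (7.85%), against 7.43% of all 835 tested pairs (6.23% more skipping, 1.20% less). The calls lay in 27 genes, 22 with more skipping and 5 with less. Of the frame-keeping pairs 21 of 313 (6.71%) passed. Of the pairs with 1 exon a multiple of 3, 25 of 331 passed, and of those with neither, 16 of 191. The groups did not overlap in 139 of the 522 (26.6%), against 27.3% of all tested pairs. In 15 calls skipping was under 2% in both groups and in 13 it was over 10% in at least 1. DESeq2 called 24 of the 41 pairs, and 14 pairs in 10 genes, all with more skipping, were called by DESeq2 and without each library in turn.

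**Figure D4:**
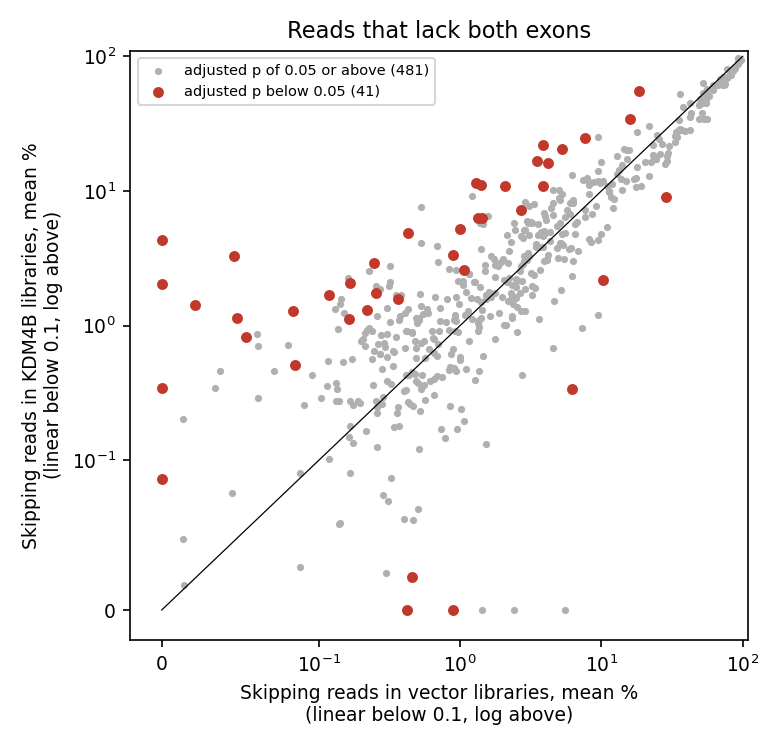
Mean share of reads that skip both exons in the KDM4B libraries (vertical) against the vector libraries (horizontal), in percent, for the 522 tested frame-changing pairs; axes are linear below 0.1 and logarithmic above, and the line marks equal shares. Of the 41 red points, which passed the edgeR threshold, 35 lie above the line and 6 below it.

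Skipping also rose by over 10 percentage points in CPNE7, MRPL55, SLC2A8, MMEL1, CGREF1 and ITPA. CPNE7, a copine that binds phospholipids in the presence of calcium, had 40, 41 and 48 skipping reads in the KDM4B libraries, against 17, 25 and 33 in the vector libraries. The reads of its 140-base exon were 13, 22 and 20 in the KDM4B libraries, against 47, 51 and 46 in the vector libraries. Skipping was 55.2% ± 3.40 of reads in the KDM4B libraries and 18.5% ± 8.38 in the vector libraries (log2 odds ratio 2.49 ± 0.43, edgeR adjusted p = 2.8e-05). A transcript with both exons adds reads to each, so these shares do not tell which form was the commoner one. The lengths of 140 and 85 bases make the loss of both a multiple of 3. Like PYCR1, SLC2A8, MMEL1, ITPA, CGREF1, CASP8, IRF3 and SQSTM1 described next, it was chosen after its values were seen.

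MRPL55 had 85, 96 and 74 skipping reads in the KDM4B libraries, against 59, 70 and 60 in the vector libraries, for a pair of 67 and 38 bases that no listed transcript holds together. Its share was 34.0% ± 4.72 in the KDM4B libraries and 15.8% ± 2.05 in the vector libraries (log2 odds ratio 1.46 ± 0.34, edgeR adjusted p = 0.00426). The same 67-base exon had a smaller share in the exon choice described above. SLC2A8, a glucose transporter of intracellular membranes, had 35, 53 and 47 skipping reads in the KDM4B libraries, against 8, 17 and 13 in the vector libraries (24.8% and 7.67% of reads; log2 odds ratio 1.97 ± 0.44, edgeR adjusted p = 0.00209). ITPA, a pyrophosphatase that clears inosine triphosphate, had 19, 20 and 22 in the KDM4B libraries, against 6, 5 and 10 in the vector libraries (16.2% and 4.22%; 2.12 ± 0.50, edgeR adjusted p = 0.00428). CGREF1, a secreted calcium-binding protein, had 19, 13 and 21 in the KDM4B libraries, against 5, 7 and 9 in the vector libraries (16.7% and 3.49%; 2.40 ± 0.52, edgeR adjusted p = 0.00167). In SLC2A8, ITPA and CGREF1 every KDM4B library had more skipping reads than any vector library, and these calls and that of MRPL55 were kept without each library in turn. MMEL1, a neprilysin-like peptidase, had fewer reads, with 8, 8 and 7 skipping in the KDM4B libraries and 5, 6 and 15 in the vector libraries, beside lower exon reads in the KDM4B libraries. Its skipping was 20.5% ± 3.22 in the KDM4B libraries and 5.27% ± 3.27 in the vector libraries (log2 odds ratio 2.18 ± 0.61, edgeR adjusted p = 0.015), and the call was lost without KDM4B replicate 1 or 4 or vector replicate 1 or 2 (0.0587 to 0.0837).

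Other calls concerned skipping that averaged under 5% of reads in both groups. PYCR1, an enzyme of proline synthesis, had 25, 26 and 43 skipping reads in the KDM4B libraries, against 10, 3 and 0 in the vector libraries, while the gene was lower (124.43, 133.41 and 131.19 FPKM in the KDM4B libraries, 273.41, 258.74 and 262.78 FPKM in the vector libraries). Its skipping was 1.70% ± 0.50 in the KDM4B libraries and 0.12% ± 0.14 in the vector libraries (edgeR adjusted p = 1.96e-06). FASTK, a protein of mitochondrial RNA processing, had 19, 18 and 18 skipping reads in the KDM4B libraries, against 0, 0 and 1 in the vector libraries (edgeR adjusted p = 1.96e-06). The odds ratio over summed reads was 71.8, with an exact 95% interval of 12.3 to 2886 that covers counting error only. SELENBP1, a selenium-binding methanethiol oxidase, had 21, 17 and 14 in the KDM4B libraries, against 0, 0 and 0 in the vector libraries (edgeR adjusted p = 0.00426). With the vector group set to 3 reads in all, its odds were 6.93-fold higher. Such a value leaves out counting error in the other group and the spread among libraries, so it is no lower limit. Here the gene was higher, at 321.78, 369.94 and 341.17 FPKM in the KDM4B libraries and 148.72, 145.08 and 137.07 FPKM in the vector libraries. WDR90, a WD-repeat protein of centrioles with 79 to 128 reads per library in all, had 2, 5 and 4 skipping reads in the KDM4B libraries, against 0, 0 and 0 in the vector libraries. With the vector group set to 3 reads its odds were 5.22-fold higher (edgeR adjusted p = 0.0128, but 0.0575 without vector replicate 1 and 0.0605 without vector replicate 3).

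EIF4G1 and IRF3 each had several pairs over the same skipping reads. EIF4G1 had 67, 53 and 57 in the KDM4B libraries, against 24, 19 and 14 in the vector libraries, which gave 10.8% ± 1.54 and 3.85% ± 1.10 around its 57-base and 94-base exons in the KDM4B and vector libraries (log2 odds ratio 1.60 ± 0.37, edgeR adjusted p = 0.00306). IRF3, a transcription factor of the interferon response, had 7, 7 and 13 in the KDM4B libraries, against 0, 1 and 1 in the vector libraries. All 3 of its pairs were called with edgeR adjusted p of 0.00942 to 0.0128, all were lost without vector replicate 1 (0.0702 to 0.0844), and 2 also without KDM4B replicate 4 (0.0503 and 0.0581). SQSTM1, an autophagy receptor, rested on 1 library: it had 11, 0 and 0 skipping reads in the KDM4B libraries and 0, 0 and 0 in the vector libraries. Its groups overlapped, and the edgeR adjusted p of 0.0377 became 1 without KDM4B replicate 1.

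The 6 falls in skipping were in 5 genes, and each was lost without at least 1 library. CASP8, an initiator caspase of apoptosis, had 3, 4 and 4 skipping reads in the KDM4B libraries, against 27, 14 and 14 in the vector libraries (9.03% and 28.5% of reads; log2 odds ratio -2.10 ± 0.62, edgeR adjusted p = 0.0199). It was lost without KDM4B replicate 1, vector replicate 1 or vector replicate 3 (0.169, 0.171 and 0.0605). TMCO3 had 0, 0 and 0 in the KDM4B libraries, against 7, 12 and 3 in the vector libraries, 4.83-fold lower odds with the KDM4B group set to 3 reads in all (edgeR adjusted p = 0.0128, but 0.0831 without KDM4B replicate 1 and 0.0556 without vector replicate 2). GTF2A2, the small subunit of the general transcription factor TFIIA, had 0, 0 and 0 in the KDM4B libraries, against 6, 2 and 5 in the vector libraries, 3.84-fold lower odds when set likewise (edgeR adjusted p = 0.0309), and was called without 1 library only when that was vector replicate 2. ZZZ3, a chromatin reader of a histone acetyltransferase complex, had 1, 0 and 0 in the KDM4B libraries, against 5, 8 and 12 in the vector libraries, an odds ratio of 0.0522 with an exact 95% counting interval of 0.00127 to 0.319 (edgeR adjusted p = 0.0161). It was lost without KDM4B replicate 2 or 4 or vector replicate 3 (0.0677 to 0.0869). The fifth gene was FAM208B, with 4, 3 and 0 in the KDM4B libraries and 15, 21 and 8 in the vector libraries (edgeR adjusted p = 0.0282), lost without KDM4B replicate 1 or 4 or vector replicate 1 or 2 (0.0833 to 0.171).

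Some pairs with a called exon choice could not be called for skipping, since they had fewer than 10 skipping reads in all. The called MYL6 pair had 0, 0 and 0 such reads in the KDM4B libraries and 0, 0 and 1 in the vector libraries. Of the 21 genes with a called exon choice and the 27 with a called skipping change, 4 were in both (19.0% of the first and 14.8% of the second). These were C16orf13, EIF4G1, MRPL55 and SLC50A1. Over all genes with tested frame-changing pairs, 21 of 1308 were called for exon choice and 27 of 369 for skipping. The overlap was not tested. Both tests use the same exon reads, so the calls in these genes are not independent.

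Lists of genes by function gave few calls, beside 1.63% of all tested pairs called for exon choice. Of the pairs in splicing factors and RNA-binding proteins, 0 of 31 passed by edgeR in exon choice, with 2 at an unadjusted p under 0.05. In nonsense-mediated decay and exon junction genes it was 0 of 6 (2 unadjusted), in chromatin enzymes 0 of 22 (2 unadjusted) and in DNA repair genes 0 of 29 (5 unadjusted). Median absolute log2 odds ratios in these lists were 0.18, 0.47, 0.23 and 0.19, against 0.17 over all tested pairs. Among the genes of the androgen receptor pathway 1 of 19 pairs passed, the fall in KLK2. Of 17 pairs in genes known for splice variants in prostate tumours, 6 rose and 1 fell, from ADAM15, CTNND1 and KLK2: the rises were the 4 ADAM15 pairs, which share exons, and 2 CTNND1 pairs on the same exons. The 17 had a median absolute log2 odds ratio of 0.80. Among cytoskeleton, adhesion and vesicle genes 3 of 22 rose, from CTNND1 and MYL6. For skipping of both exons 0 pairs passed in any of the 7 lists by edgeR, against 7.43% of all 835 tested pairs. The lists held 2 to 12 tested pairs each, with 0 to 3 at an unadjusted p under 0.05. So few pairs tell little about a list.

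The listed pairs described next did not pass the threshold. The groups did not overlap in 4 of the 31 splicing factor pairs, 4 of the 22 chromatin pairs and 4 of the 29 repair pairs, near the 14.4% of all tested pairs. SF1, a factor that binds the branch point in splicing, had 66.9%, 70.3% and 68.9% of reads in its 180-base exon in the KDM4B libraries, against 63.4%, 63.1% and 59.7% in the vector libraries, without overlap (log2 odds ratio 0.42 ± 0.12, edgeR adjusted p = 0.0687). KDM1A, a lysine demethylase, had 89.4%, 90.1% and 86.7% in its 166-base exon in the KDM4B libraries, against 84.6%, 83.4% and 84.2% in the vector libraries (0.58 ± 0.19, edgeR adjusted p = 0.174). Neither was past the threshold without any 1 library. UPF3A, a factor of nonsense-mediated decay, had 88.4% ± 2.02 in its 1522-base exon in the KDM4B libraries and 92.9% ± 1.37 in the vector libraries (edgeR adjusted p = 0.187). MAGOH, a core protein of the exon junction complex, had 52.7% ± 3.30 in the KDM4B libraries and 52.2% ± 3.95 in the vector libraries (edgeR adjusted p = 0.984). TMPRSS2, an androgen-induced protease, had 4.54% ± 0.75 of reads in its 71-base exon in the KDM4B libraries and 3.20% ± 0.48 in the vector libraries (edgeR adjusted p = 0.156). OGG1, which removes oxidised guanine from DNA, had 55.1% ± 2.55 in the KDM4B libraries and 66.3% ± 3.94 in the vector libraries (edgeR adjusted p = 0.166). The other listed pairs named by the rule (ESRP2, RBM23, HDAC10, BRD9, TMEM79, BARD1, ERCC1 and WASF1) had edgeR adjusted p of 0.14 to 0.53, and the groups overlapped in MAGOH, RBM23, HDAC10 and TMEM79. HDAC10 passed without KDM4B replicate 4 (0.0426) and TMEM79 without KDM4B replicate 1 (0.0231).

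The genes that held tested frame-changing pairs were mostly lower in the KDM4B libraries, as were genes as a whole. Over all 12148 genes, 1628 were higher and 7323 lower as deposited, and 4136 were higher and 4114 lower after the scaling described below. Of 1303 with a tested level, 123 were higher and 922 lower by limma on log2(FPKM + 1), 80.2% in all, against 73.7% of all 12148 genes, and their median change was -0.29, against -0.22 over all genes. After division by each library's median of ratios, which brought the median of all genes to 0, 376 were higher and 552 lower (71.3%, against 68.0% of all genes), with a median of -0.07. Of the 21 genes with a called exon choice, 4 were higher and 13 lower, or 8 and 8 after scaling. Of the 27 with a called skipping change, 3 were higher and 21 lower, or 6 and 14 of the 26 tested after scaling. The deposited FPKM thus carry a shift between the groups that the shares within a gene do not, since level and depth cancel from an odds ratio.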

How the data were processed

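RNA of 3 KDM4B and 3 vector libraries was compared. The authors deposited whole-number read counts per splicing event, which were not normalized, and FPKM values per gene, per the file headers. The submitters' processing notes name HISAT, StringTie and Cufflinks and give neither roles nor versions; which program called splicing events was not given in the sources used here. Counts of mutually exclusive pairs summed to 5182338 to 5373342 reads in the KDM4B libraries and 6057758 to 6262589 in the vector libraries; these sums share reads between events and are not library depths, which are unknown.

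Sets of 2 skipped exon events and 1 pair on the same exons and flanks were found for 3247 pairs, and 19478 of 19482 values of their sum minus the pair's count were even and not negative; 2 sets were left out. Exon choice and skipping were tested with edgeR 4.0.16 (glmQLFit, glmQLFTest; R 4.3.3) on models that held library, form and the interaction of form and group, where every library had at least 10 reads and each form 10 over all, two-sided, with Benjamini-Hochberg adjustment at 0.05. Gene levels were tested with limma 3.58.1 on log2(FPKM + 1) where the mean was at least 1 FPKM; such fold changes understate low genes. On simulated data of 2985 pairs the choice test recovered 68% of log2 odds ratios of 1 and 96% of those of 2, with 6.29% false among its calls. The simulated counts were independent, with the same dispersion set for every exon. Real pairs can share exons and differ in spread, so these rates need not hold for the calls reported here. Alternatives were DESeq2 1.42.0, limma on log2 ratios, TMM library sizes, other filters, 1 pair per gene, leaving out each library and a replicate block.

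The named pairs were the 10 largest called shifts each way with at least 20 reads in each library, no overlap of the groups and 1 pair per gene and direction, the one with most reads; the 3 largest each way for skipping; up to 3 per gene list by lowest p; and the 5 with most reads, of which 1 is not reported here. The members and the lists were chosen with earlier results of these data known. Groups of called skipping pairs at 0 reads were set to 3 reads to give a fold of odds, which is no lower limit since the other group's count was taken as exact. No sequence is shown, since a genome of the files' build was not used here.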

Additional observations from a re-analysis of the deposited data

How the results depend on the processing

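Exon choice called 36 frame-changing pairs (18 higher and 18 lower). It called 14 (5 and 9) with 1 pair per gene, 14 (10 and 4) by DESeq2 and 12 (7 and 5) by limma on log2 ratios, and 34 to 36 under TMM library sizes or other read filters. Leaving out 1 library gave 24 to 35 calls, 14 to 21 higher and 10 to 14 lower, with 10 lower without vector replicate 1 or vector replicate 3. Skipping called 41 pairs (35 more and 6 less). It called 19 (17 and 2) with 1 pair per gene, 24 (22 and 2) by DESeq2, 11 (9 and 2) by limma, and 11 (11 and 0) with no filter on reads. Leaving out 1 library gave 20 to 39 calls, 17 to 34 more and 2 to 5 less, with 20 without vector replicate 1 and 25 without vector replicate 3. With 1 pair per gene fewer pairs are tested; the causes of the other differences were not tested. The replicate block, with replicates 1 and 2 shared, gave 9 calls (5 and 4) for choice and 13 (13 and 0) for skipping. Same-numbered libraries did not deviate together in exon choice (correlations of -0.0314 and -0.0496). With only 2 shared numbers this cannot settle whether the numbers pair libraries, which the labels do not state. Expression counts, 123 higher and 922 lower genes, were 376 and 552 with median-of-ratios scaling; leaving out 1 library gave 109 to 131 higher and 872 to 928 lower. Of 595 alternative values of named pairs, 478 kept direction and side of the threshold, 106 kept direction and lost the call, and 2 gained one (HDAC10 without KDM4B replicate 4 and TMEM79 without KDM4B replicate 1). In 9, all of uncalled pairs near 0, the log2 odds ratio changed sign. With the replicate block PPIA was 0.012. Over the fits without 1 library each, MAGOH ranged from -0.090 to 0.14, RPL12 from -0.028 to 0.022 and PPIA from -0.048 to 0.032. For skipping, 1501 of 2043 recovered pairs had under 10 such reads in all and were not tested.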
